A study of Mus musculus with 6 samples.

Results

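The vacuolar proton pump is built from subunits that many cells share and from isoforms that a few cell types use in their place. This account covers 10 genes of the pump, chosen as 5 pairs of paralogues out of 23669 gene rows. Each pair holds an isoform enriched in intercalated cells (Atp6v1b1, Atp6v1c2, Atp6v1g3, Atp6v0d2 and Atp6v0a4) and its ubiquitous counterpart (Atp6v1b2, Atp6v1c1, Atp6v1g1, Atp6v0d1 and Atp6v0a1). RNA was sequenced from whole kidneys of mice at postnatal day 3, with 3 libraries of genotype R26NICD2/+Kspcre, called NICD2 here, and 3 of wild type (WT). The NICD2 mice carry 1 copy of a Rosa26 allele of the Notch2 intracellular domain, the active form of the receptor, and a Cre driven by the promoter of Ksp-cadherin, a cadherin of kidney tubule cells. The labels name no allele in the WT mice and do not say whether they had the Cre, nor whether the libraries of a group came from separate animals, so p-values measure the spread between these libraries, which may be technical in part.

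The pump uses ATP to move protons across membranes. Its V1 sector, in the cytosol, splits ATP, and its V0 sector, in the membrane, carries the protons. In most cells it acidifies lysosomes and endosomes. Intercalated cells of the collecting duct and connecting tubule place it in the plasma membrane as well, to secrete acid or bicarbonate, and use their own isoforms for several subunits. In humans, mutations of ATP6V1B1 or ATP6V0A4 cause distal renal tubular acidosis.

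All 5 intercalated-enriched isoforms were lower in NICD2 kidneys, and none of the 4 ubiquitous counterparts with values passed the test. The 5 fell by very unequal amounts. Atp6v1c2, Atp6v1g3 and Atp6v0d2 were at 11.8%, 12.2% and 12.5% of their WT mean, while Atp6v1b1 and Atp6v0a4 were at 61.7% and 65.8%. The fall of Atp6v0a4 is less certain, as its locus overlaps a more abundant gene that was also lower. Levels are FPKM, fragment counts divided by transcript length and by the mapped total of the library. Every one of the 9 members with values was above 1 FPKM in all 6 libraries. Fold changes are differences of log2(FPKM + 1), NICD2 minus WT, ± SE, from limma across 13765 genes, and an adjusted p under 0.05 was called. That scale understates changes of low genes. Of all genes tested, 8.79% were called, 3.86% as lower and 4.93% as higher in NICD2. In whole kidney, fewer intercalated cells and less RNA per cell cannot be told apart. The fall of some of these genes was known when the pairs were chosen, so the count of 5 is a description.

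The depth was estimated from the steps between low values at 15500000 to 17150000 fragments per library. FPKM of the whole Notch2 gene, of which the allele holds a part, was 16.3 to 17.8 in NICD2 and 15.3 to 18 in WT libraries and does not check the labels. Libraries differed in ways that the groups do not explain. The Y-linked Ddx3y, Uty, Eif2s3y and Kdm5d were listed at 0 in NICD2 replicate 3 alone. Eif2s3y was at 30.9 to 41.5 FPKM in the other libraries. By these genes NICD2 replicate 3 held female tissue only, and was thus not the same tissue as NICD2 replicates 1 and 2. The chromaffin gene Chga was at 0.13, 26.8 and 27.5 FPKM in NICD2 replicates 1 to 3 and at 32.7, 33 and 0.53 FPKM in WT replicates 1 to 3. Each group thus had 1 library nearly without Chga. All 5 intercalated-enriched genes were also called in the fit without NICD2 replicate 3, in that without NICD2 replicate 1 and in that without WT replicate 3.

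The promoters of the intercalated-enriched genes are shown since all 5 genes fell, though by unequal amounts. RefSeq (GRCm38.p6) gave a promoter for 4 of the 5 intercalated-enriched genes and for 2 of the 5 ubiquitous ones. Atp6v0d2, Atp6v1b2, Atp6v1c1 and Atp6v1g1 had no entry. The 250 bases before the start were searched on both strands for TGTTTA (a core of forkhead factor sites), TGGGAA (a core of sites of RBPJ, the DNA-binding partner of the Notch domain) and CACGTG (an E-box). Capitals mark the matches, and each sequence runs 5′ to 3′ in the direction of its gene.
Atp6v1b1 (GRCm38.p6, chr6:83742767-83743016, plus strand): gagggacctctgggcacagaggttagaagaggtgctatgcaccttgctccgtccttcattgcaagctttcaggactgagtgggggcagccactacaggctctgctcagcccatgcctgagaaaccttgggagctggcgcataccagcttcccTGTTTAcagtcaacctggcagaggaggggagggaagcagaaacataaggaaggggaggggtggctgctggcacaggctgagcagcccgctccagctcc
Atp6v0a4 (GRCm38.p6, chr6:38124587-38124836, minus strand): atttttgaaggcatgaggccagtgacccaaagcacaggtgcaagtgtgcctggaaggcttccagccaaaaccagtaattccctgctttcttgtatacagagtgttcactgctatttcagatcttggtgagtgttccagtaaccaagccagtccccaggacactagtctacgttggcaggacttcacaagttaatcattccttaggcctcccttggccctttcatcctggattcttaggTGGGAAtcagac
Atp6v1c2 (GRCm38.p6, chr12:17324731-17324980, minus strand): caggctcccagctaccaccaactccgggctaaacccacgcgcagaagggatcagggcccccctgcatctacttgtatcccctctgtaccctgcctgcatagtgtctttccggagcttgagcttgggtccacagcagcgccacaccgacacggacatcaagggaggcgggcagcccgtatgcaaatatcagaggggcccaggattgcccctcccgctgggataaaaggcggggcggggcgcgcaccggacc
Atp6v1g3 (GRCm38.p6, chr1:138273488-138273737, plus strand): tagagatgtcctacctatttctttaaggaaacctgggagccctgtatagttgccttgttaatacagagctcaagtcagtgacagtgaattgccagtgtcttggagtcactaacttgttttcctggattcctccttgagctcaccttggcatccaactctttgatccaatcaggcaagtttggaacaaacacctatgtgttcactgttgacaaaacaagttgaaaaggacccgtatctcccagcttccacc

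Atp6v1b1 held TGTTTA from base -98, counted from the start. This motif was in 12% of all 32851 promoters of the same length. Atp6v0a4 held TGGGAA from base -12, a motif in 21.6% of all promoters. Atp6v1c2 and Atp6v1g3, both among the most changed members, held none of the 3 motifs, nor did Atp6v0d1 or Atp6v0a1. CACGTG was in 6.02% of all promoters and in none of these 6. The motifs do not overlap each other in these windows, and a match is not a binding site. The windows of Atp6v0a4, Atp6v1c2 and Atp6v0a1 lie inside the loci given below for these genes. Each of them thus belongs to a RefSeq start within the gene, not to the outer start of the locus behind the FPKM.

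In the V1 sector, subunit B binds nucleotide beside the catalytic subunit. Its intercalated-enriched isoform Atp6v1b1 (gene 110935, chr6:83743017-83758810 on GRCm38, as are all gene positions here) had 32.4, 33.9 and 34.5 FPKM in the NICD2 libraries, against 54.3, 58.6 and 50.5 FPKM in the WT libraries. The groups did not overlap, and the NICD2 values were close together. The fold change was -0.68 ± 0.07 (limma adjusted p = 6.60e-04). From its single transcript, these levels stand for an estimated 994 to 1069 fragments in NICD2 libraries and 1521 to 1775 in WT libraries. The ubiquitous Atp6v1b2 (gene 11966, chr8:69088736-69113718) had 47.6, 49.1 and 49 FPKM in NICD2 and 49.6, 53.4 and 47.9 FPKM in WT. Its locus overlaps Slc18a1 on the other strand, which had 5.08 to 6.44 FPKM in NICD2 and 7.83 to 8.77 FPKM in WT. The ranges of Atp6v1b2 overlapped, and its fold change of -0.05 had a 95% interval of -0.19 to 0.09 (limma adjusted p = 0.680).

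Subunit G belongs to the peripheral stalks that hold the V1 sector in place. Atp6v1g3 (gene 338375, chr1:138273738-138289462) had 1.35, 1.64 and 1.98 FPKM in NICD2 libraries, against 14.5, 11.9 and 14.5 FPKM in WT libraries. Every NICD2 library was far below every WT library (log2 fold change -2.46 ± 0.11, limma adjusted p = 1.05e-05). These values stand for an estimated 41 to 60 fragments per NICD2 library and 352 to 439 per WT library, so reads of the gene remained in every NICD2 library. Atp6v1g1 (gene 66290, chr4:63544765-63550701), the most abundant member per length, had 103, 95.1 and 99 FPKM in NICD2 and 106, 101 and 99 FPKM in WT. The groups overlapped, with a fold change of -0.04 and a 95% interval of -0.18 to 0.10 (limma adjusted p = 0.711). Of the 50-base words in its transcripts, 19.2% also occurred in transcripts of Gm12344 or Gm13453, and how the authors divided such reads was not stated.

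Subunit C joins the V1 and V0 sectors and is released when they separate. Atp6v1c2 (gene 68775, chr12:17284721-17325386) had 1.1, 1.66 and 2 FPKM in NICD2 libraries, against 13.1, 12.4 and 14.7 FPKM in WT libraries. The groups were far apart (log2 fold change -2.49 ± 0.13, limma adjusted p = 2.17e-05). It was the lowest member in NICD2 kidneys, where its range overlapped that of Atp6v1g3. Its locus overlaps Pdia6 on the other strand, and the treatment of strand was not stated. Pdia6 had 129 to 145 FPKM in NICD2 and 123 to 128 FPKM in WT libraries. The ubiquitous Atp6v1c1 (gene 66335) has a row in the table on a scaffold outside the numbered chromosomes, with no FPKM in any library, so subunit C has no paralogue comparison.

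**Figure D1:**
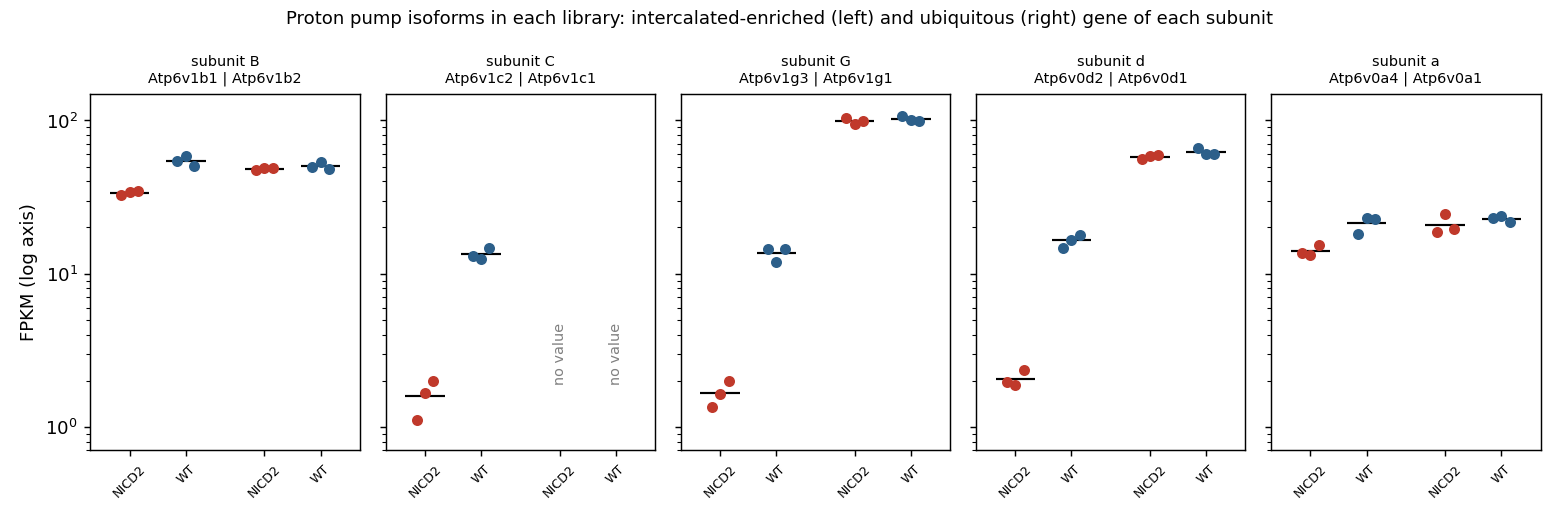
FPKM of each member (log axis) in 3 NICD2 (red) and 3 WT (blue) libraries, in 1 panel per subunit with the intercalated-enriched gene on the left and the ubiquitous gene on the right. Points are libraries and lines are means. Atp6v1c2, Atp6v1g3 and Atp6v0d2 lay between 1.1 and 2.33 FPKM in NICD2 libraries, and Atp6v1c1 had no value.

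In the V0 sector, subunit d couples the rotor to the membrane ring, and its isoform d2 is also known from osteoclasts. Atp6v0d2 (gene 242341, chr4:19876838-19922566) had 1.96, 1.86 and 2.33 FPKM in NICD2 libraries, against 14.8, 16.6 and 18 FPKM in WT libraries. No NICD2 library came near a WT library (log2 fold change -2.52 ± 0.10, limma adjusted p = 4.74e-06). Atp6v0d1 (gene 11972, chr8:105524470-105566040) had 55.9, 58.7 and 59.1 FPKM in NICD2 and 66.5, 60.1 and 60 FPKM in WT. The NICD2 values were all below the WT values by a small margin, but the fold change of -0.10 was not called (95% interval -0.25 to 0.05, limma adjusted p = 0.381). Of all genes tested, 15.5% had every NICD2 library below every WT library.

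Subunit a forms the path of the protons through the membrane and directs the pump to its membrane. Atp6v0a4 (gene 140494, chr6:38048483-38254009), whose product is also known from the proximal tubule, had 13.6, 13.2 and 15.3 FPKM in NICD2 libraries, against 18.1, 23.2 and 22.9 FPKM in WT libraries. The groups did not overlap, and WT replicate 1 was the closest to the NICD2 values. The fold change was -0.57 ± 0.10 (limma adjusted p = 0.0118), and its call was lost without WT replicate 2 (limma adjusted p = 0.0560). The locus as the table gives it overlaps Tmem213 on the other strand and D630045J12Rik on the same strand, and 4.23% of the 50-base words of its transcripts also occurred in those of D630045J12Rik. Tmem213 had 67.1 to 91.3 FPKM in NICD2 and 131 to 141 FPKM in WT libraries. It was itself called lower (log2 fold change -0.78 ± 0.10, limma adjusted p = 0.00281). D630045J12Rik had 3.02 to 3.31 FPKM in NICD2 and 3.19 to 3.88 FPKM in WT libraries. Both the level and the fold change of Atp6v0a4 are thus uncertain, and the part of shared reads was not tested. The ubiquitous Atp6v0a1 (gene 11975, chr11:101009449-101063719) had 18.6, 24.3 and 19.6 FPKM in NICD2 and 22.9, 23.6 and 21.6 FPKM in WT. The highest value was in a NICD2 library, and the fold change of -0.13 was not called (95% interval -0.35 to 0.10, limma adjusted p = 0.478).

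Of the 4 ubiquitous genes tested, limma called none, and none reached an unadjusted p under 0.05, which 25.1% of all genes tested did. By DEGseq, 3 of them had a q under 0.05 in the authors' deposited table, all with small negative log2 fold changes. That q was reached by 48.9% of the 18725 genes with one in the authors' deposited table. In the authors' deposited table these were -0.10 for Atp6v0d1 (q = 0.00162), -0.12 for Atp6v0a1 (q = 1.47e-04) and -0.05 for Atp6v1b2 (q = 0.0496). The authors' deposited table gave all 5 intercalated-enriched genes a q under 0.05, with log2 fold changes of -3.09 for Atp6v1c2, -3.04 for Atp6v1g3, -3.02 for Atp6v0d2, -0.70 for Atp6v1b1 and -0.60 for Atp6v0a4. No 50-base word was shared by the transcripts of both genes of any pair.

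The share of each pair held by the intercalated-enriched isoform compares both genes within a library and does not depend on scaling between libraries. Atp6v1b1 made up 40.5%, 40.8% and 41.3% of the FPKM of the B pair in NICD2 libraries, against 52.3%, 52.3% and 51.3% in WT libraries. Thus Atp6v1b1 was below Atp6v1b2 in every NICD2 library and above it in every WT library. Atp6v0a4 made up 42.2%, 35.2% and 43.9% of the a4 and a1 pair in NICD2 libraries, against 44.1%, 49.6% and 51.4% in WT libraries. The highest NICD2 share and the lowest WT share of this pair were nearly the same. Atp6v1g3 made up 1.29%, 1.69% and 1.96% of the G pair in NICD2 and 12%, 10.5% and 12.8% in WT libraries. Atp6v0d2 made up 3.39%, 3.07% and 3.79% of the d pair in NICD2 and 18.2%, 21.7% and 23.1% in WT libraries.

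On the log2 scale the ratio of the isoforms, NICD2 minus WT, differed by -3.01 ± 0.20 for Atp6v1g3 over Atp6v1g1 (SE, n = 3 per group). The same difference was -2.91 ± 0.16 for Atp6v0d2 over Atp6v0d1, -0.65 ± 0.02 for Atp6v1b1 over Atp6v1b2 and -0.47 ± 0.20 for Atp6v0a4 over Atp6v0a1. The groups did not overlap in any of the 4 pairs. The two-sided exact permutation test gave p = 0.1 for each, and adjusted p = 0.1 over the 4 pairs, the smallest value that 3 against 3 libraries allow. The summed level of a pair was lower in NICD2 in all 4 cases, without overlap (exact permutation p = 0.1 each). Each sum holds the intercalated-enriched gene, so this follows in part from the fall of that gene and is not a separate result. The sum is given for its size. The summed level was 82.2 ± 1.94 FPKM in NICD2 and 105 ± 6.86 FPKM in WT for the B pair (SD, n = 3 per group). It was 60 ± 1.89 and 78.6 ± 2.4 FPKM for the d pair, 34.9 ± 2.67 and 44.1 ± 2.89 FPKM for the a4 and a1 pair, and 101 ± 3.85 and 116 ± 4.49 FPKM for the G pair, in NICD2 and WT. The sums were thus at 76.2% to 87.0% of WT.

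**Figure D2:**
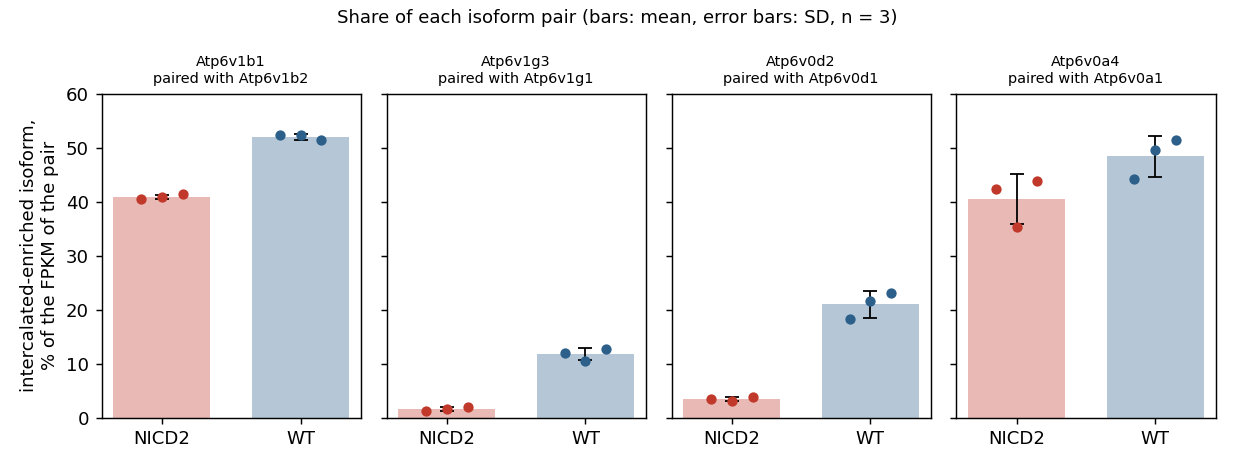
Share of the FPKM of each pair held by the intercalated-enriched isoform, in percent, for NICD2 and WT libraries. Bars are means, error bars SD (n = 3) and points libraries. Atp6v1g3 made up 1.65% of its pair in NICD2 on average, against 11.8% in WT, and Atp6v1b1 40.9%, against 52.0%.

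Among the 5 intercalated-enriched genes, the ratios between members fell into 2 patterns, chosen after their values were seen. The ratios among Atp6v1c2, Atp6v1g3 and Atp6v0d2, and that of Atp6v1b1 to Atp6v0a4, differed between NICD2 and WT by only 0.04 to 0.11 in size on the log2 scale. The groups overlapped for each of these 4 ratios. The ratios of Atp6v1b1 or Atp6v0a4 to any of the other 3 differed by 2.31 to 2.52 in size, with no overlap in any of these 6 (exact permutation p = 0.1 each, adjusted p = 0.167 over the 10 ratios). In FPKM, the largest drop in mean level was that of Atp6v1b1, which fell by 20.9 FPKM, although its relative change was small. The mean of Atp6v0d2 fell by 14.4 FPKM, that of Atp6v1g3 fell by 12 FPKM, that of Atp6v1c2 fell by 11.8 FPKM and that of Atp6v0a4 fell by 7.32 FPKM. The order by mean level was Atp6v1b1, Atp6v0a4, Atp6v0d2, Atp6v1g3 and Atp6v1c2 in both groups. The ranges of Atp6v1g3 and Atp6v1c2 overlapped in both groups, and those of Atp6v0d2 and either of them in NICD2 alone.

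Atp6v0d2, Atp6v1c2 and Atp6v1g3 ranked 7, 8 and 9 from the lowest fold change of 13765 genes. Atp6v1b1 and Atp6v0a4 ranked 134 and 218. The ubiquitous Atp6v0a1 and Atp6v0d1 ranked 3312 and 3929, and Atp6v1b2 and Atp6v1g1 ranked 5454 and 5593. A log2 fold change of -2 or lower was reached by 0.0944% of the genes tested.

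The subunits with no paired isoform here, or with other isoforms, were compared in the same fit. Of 16 such genes on a list of other pump subunits, 15 had values, 2 fell and none rose (limma adjusted p under 0.05). Of all genes tested, 3.86% were called lower and 4.93% higher. The median fold change of the 15 was -0.19, against -0.01 for all genes tested. Of the 15 estimates, 12 were negative, as were 51.8% of all genes. Atp6v0c, the proteolipid of the membrane ring and the most abundant subunit gene, had 234, 263 and 230 FPKM in NICD2 libraries, against 363, 316 and 293 FPKM in WT libraries. The groups did not overlap (log2 fold change -0.41 ± 0.09, limma adjusted p = 0.0298), but the call was lost with no filter on low values and without NICD2 replicate 1 or 3 or WT replicate 1 or 2, with limma adjusted p up to 0.0987. Atp6v1e1, a peripheral stalk subunit, had 3.51, 7.35 and 3.96 FPKM in NICD2 and 12.4, 8.3 and 13.6 FPKM in WT (log2 fold change -1.09 ± 0.24, limma adjusted p = 0.0275). NICD2 replicate 2 and WT replicate 2 were close to each other, and the call was lost with no filter and without NICD2 replicate 1 or 3 or WT replicate 1 or 3, with limma adjusted p up to 0.0896. Its row is on a scaffold outside the numbered chromosomes, as are those of Atp6v1g2 and Rnasek, which makes these levels less certain.

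The catalytic subunit Atp6v1a was not called, at 42.4, 47 and 48.8 FPKM in NICD2 and 45.4, 61.7 and 56 FPKM in WT (limma adjusted p = 0.246). Its WT libraries spread widely, and it was called lower without WT replicate 1 (limma adjusted p = 0.0457). The ring subunit Atp6v0b was at 60.2 ± 2.09 and 69.7 ± 3.41 FPKM in NICD2 and WT (SD, n = 3 per group), the small membrane subunit Atp6v0e at 88.5 ± 5.67 and 105 ± 7 FPKM, and Rnasek, a V0-associated subunit, at 128 ± 11.7 and 168 ± 20 FPKM. Their NICD2 values were below all WT values, but their limma adjusted p of 0.0794, 0.0847 and 0.0522 missed the threshold. Rnasek was called lower with a filter of 5 FPKM (limma adjusted p = 0.0465) and with upper-quartile scaling (limma adjusted p = 0.0409). The accessory subunits Atp6ap1 and Atp6ap2, needed for assembly, averaged 70.9 and 37.3 FPKM in NICD2 libraries, against 80.8 and 41.3 FPKM in WT libraries (limma adjusted p = 0.0958 and 0.230). The rotor subunits Atp6v1d and Atp6v1f averaged 44.2 and 144 FPKM in NICD2 and 48.6 and 158 FPKM in WT, and the small membrane subunit Atp6v0e2 12.7 FPKM in NICD2 and 14.6 FPKM in WT.

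Atp6v1h, a regulatory subunit of V1, varied little, at 38.2 ± 0.416 FPKM in NICD2 and 37.3 ± 0.33 FPKM in WT. Its fold change of 0.03 had a 95% interval of -0.09 to 0.16. The other isoforms of subunit a were not called either. Atp6v0a2, the isoform of the Golgi and endosomes, was at 10.7 and 10.8 FPKM in NICD2 and WT, and Tcirg1, the a3 isoform of osteoclasts and lysosomes, at 15.3 and 14.6 FPKM. Atp6v1g2, the G isoform of neurons, was at 5.03 ± 0.609 and 4.48 ± 1.19 FPKM. Thus Atp6v0a4 was the only called gene among the 4 subunit a isoforms, and Atp6v1g3 the only called gene among the 3 of subunit G, and whether their changes differ from those of Atp6v0a2, Tcirg1 and Atp6v1g2 was not tested. Atp6v1e2 had no value.

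**Figure D3:**
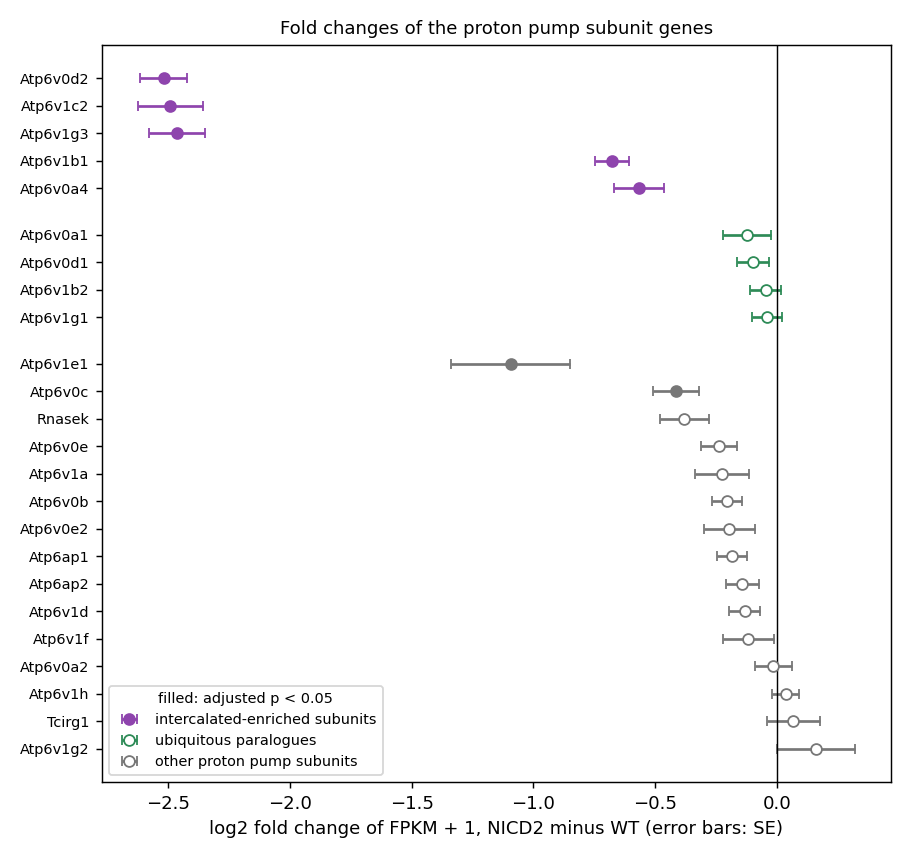
Log2 fold change of FPKM + 1, NICD2 minus WT, of every pump subunit gene tested, with SE bars, grouped by list. Filled points had an adjusted p under 0.05. The 5 intercalated-enriched genes run from -2.52 to -0.57, and the 4 ubiquitous genes from -0.13 to -0.04.

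Genes that assemble or bind the pump gave 3 of 12 lower and none higher, with a median fold change of -0.11. The shares of all genes tested were 3.86% lower and 4.93% higher. Tldc2, of the TLDc family whose members bind the V1 sector, was at 0.237 ± 0.0839 FPKM in NICD2 and 4.78 ± 0.998 FPKM in WT (SD, n = 3 per group). It met the filter on low values through its WT libraries alone, so it could be tested only because it was high there, and without it 2 genes of the list were lower. Its relative Ncoa7 and the rabconnectin Dmxl2 fell by 0.35 and 0.33 on the log2 scale (limma adjusted p = 0.0476 and 0.0297), and each call was lost in all but 1 of the 6 fits with a library left out, with limma adjusted p up to 0.0984 for Dmxl2 and 0.163 for Ncoa7. Rogdi, a partner of the rabconnectins, was at 28.5 and 37.2 FPKM in NICD2 and WT (limma adjusted p = 0.0525). It was called lower with a filter of 5 FPKM (limma adjusted p = 0.0453) and without NICD2 replicate 2 (limma adjusted p = 0.0364). Median-ratio and upper-quartile scaling also gave this call (limma adjusted p = 0.0497 and 0.0414). The list had 1 to 4 genes lower with another pseudocount, filter, scaling or the block, and 0 to 2 without a library. With any WT replicate left out, Tldc2 did not meet the filter on low values, and the list then had 0 genes called without WT replicate 2 or 3 and 1 without WT replicate 1.

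Lysosomal genes, which mark the compartment that the pump acidifies in most cells, had 1 of 25 higher and none lower, with a median of -0.03. Of all genes tested, 4.93% were called higher and 3.86% lower, so this count is near the share of all genes. The one that rose was Clcn7, the chloride and proton exchanger of lysosomes, at 11.8 ± 0.0681 FPKM in NICD2 and 9.83 ± 0.0115 FPKM in WT (limma adjusted p = 0.0413). Leaving out any library ended this call, with limma adjusted p up to 0.129. The summed level of the lysosomal list was 1825 to 1942 FPKM in NICD2 and 1884 to 1957 FPKM in WT libraries. Other cation pumps of the kidney gave 2 of 6 lower. These were the proton and potassium pumps Atp12a, at 15.5 ± 1.51 FPKM in NICD2 and 23.8 ± 1.56 FPKM in WT (log2 fold change -0.58 ± 0.08, limma adjusted p = 0.00402), and Atp4a, at 1.05 ± 0.243 and 2.32 ± 0.201 FPKM (limma adjusted p = 0.00895). Both are known from the collecting duct. The sodium pump subunit Atp1b1 was not called, averaging 527 FPKM in NICD2, against 475 FPKM in WT.

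Markers of cell types were read beside the pump genes. Of 20 intercalated cell markers, 15 were lower and 1, the ammonia transporter Rhbg, was higher, with a median fold change of -1.11. Among all genes tested, 3.86% were called lower and 4.93% higher, so the count of 1 higher is near that share. The list had a summed level of 289 to 309 FPKM in NICD2 and 497 to 508 FPKM in WT libraries. Of the 15, Slc26a4, Aqp6, Hepacam2 and Hmx2 met the filter through WT libraries alone, so this count and median describe the list and support nothing, and the other 11 had 1 FPKM or more in 2 or 3 NICD2 libraries. None was at 0 in all libraries, and the call of Rhbg was lost without NICD2 replicate 1 or WT replicate 2 or 3. Foxi1, the transcription factor needed for intercalated cells and for their pump genes, was at 15.8% of its WT mean, the vesicle channel Aqp6 at 3.32% and the exchanger Slc26a4 at 4.03%. The exchanger Slc4a9 had 3.27 ± 0.516 FPKM in NICD2 and 32.7 ± 0.527 FPKM in WT (SD, n = 3 per group). Atp6v1c2, Atp6v1g3 and Atp6v0d2 thus lay near Foxi1, and Atp6v1b1 and Atp6v0a4 near Kit at 68.8%. Kit and Rhbg were named after their values were seen. The part of the intercalated markers in the pump changes was not tested.

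Principal cell markers, the other cells of the duct, gave 5 of 12 lower and 3 higher. For all genes tested, these shares were 3.86% and 4.93%. The 5 lower genes were the water channels Aqp2, Aqp3 and Aqp4, with Hsd11b2 and Fxyd4 at 53.8% and 46.8% of their WT mean. The higher ones were Scnn1g, Elf5 and Kcnj1. The list had sums of 277 to 327 FPKM in NICD2 and 448 to 480 FPKM in WT libraries. Proximal tubule markers gave 2 of 12 lower, Slc34a1 and Kap, with sums of 1588 to 1875 FPKM in NICD2 and 2211 to 2350 FPKM in WT libraries. Macrophage and osteoclast markers, the other cells known for Atp6v0d2 and Tcirg1, gave 1 of 10 tested higher and none lower, with sums of 109 to 146 FPKM in NICD2 and 87.3 to 117 FPKM in WT libraries. The one higher gene was Cd14, whose call was lost without NICD2 replicate 1 or 2 or WT replicate 2 or 3 (limma adjusted p up to 0.0984). Of the markers of this list, Ocstamp was at 0 to 0.07 FPKM in NICD2 and 0.06 to 0.1 FPKM in WT libraries. The neuronal and chromaffin list summed to 1.01 to 42.8 FPKM in NICD2 and 1.63 to 56.4 FPKM in WT libraries. The part of these cells in the pump changes was not tested.

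**Figure D4:**
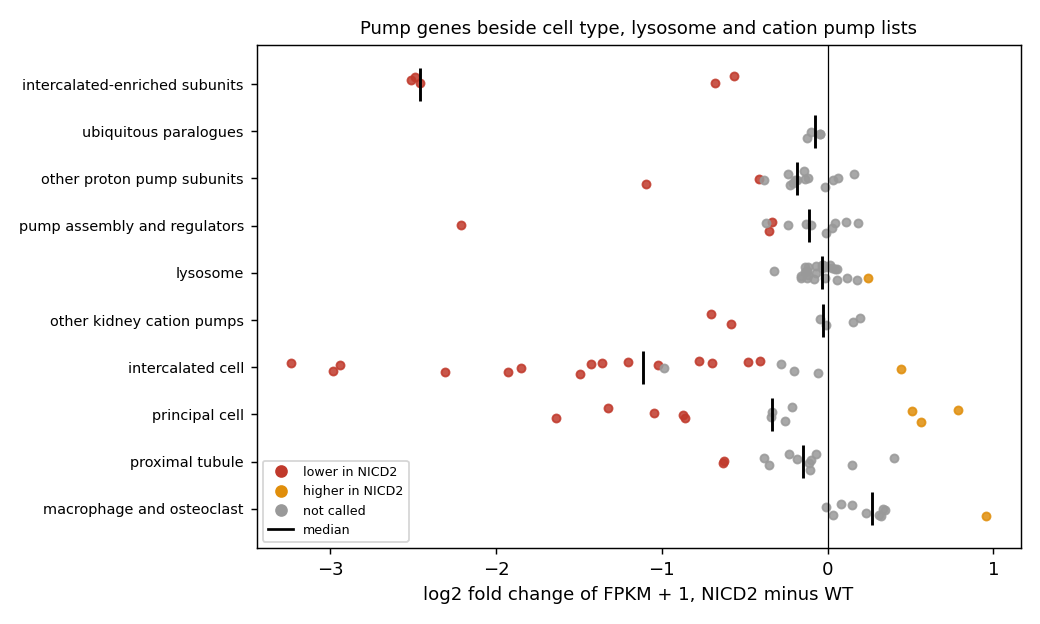
Log2 fold change of FPKM + 1, NICD2 minus WT, of the tested genes of each list. Points are genes, coloured by call, and black lines are list medians. The intercalated-enriched subunits had a median of -2.46, the intercalated cell markers -1.11, the ubiquitous paralogues -0.07 and the lysosomal genes -0.03.

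By the profile over the 6 libraries, the genes most like the mean of the 5 intercalated-enriched isoforms were found by the smallest root-mean-square difference of mean-centred log2(FPKM + 1). The closest was a gene that the table names only as BGI_novel_G000511, with a difference of 0.097 and 0.16 FPKM in NICD2 and 2.8 FPKM in WT. Insrr, an insulin receptor relative that senses alkaline pH, had a difference of 0.129 and was at 1.32 and 7.33 FPKM in NICD2 and WT. Aldh1a3, a retinoic acid synthesis enzyme, had a difference of 0.137 and was at 4.94 and 20.9 FPKM. The urea transporter Slc14a2, with a difference of 0.144, was at 7.41 and 30.1 FPKM. Hepacam2, Car12, Hmx2 and Slc6a12 followed, with differences of 0.15 to 0.204. Hepacam2, Hmx2, Slc6a12 and the closest gene were below 1 FPKM in every NICD2 library. They met the filter through WT libraries alone, so their likeness is a description and supports nothing. The 5 members themselves were 0.372 to 0.595 from their own mean, since that mean lies between their 2 patterns.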

How the data were processed

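Samples were grouped by genotype and numbered as labelled. Libraries were made from total RNA with an Illumina TruSeq kit, per the labels' protocols. The deposited FPKM, to 2 decimals per library and gene, were computed by the authors, per the file headers. Bowtie 0.12.2 and mm8 stand in the submitters' processing notes, while the chromosome accessions in the table are those of GRCm38, which is used here. The software behind the FPKM, its handling of strand and that of shared reads were not given in the sources used here. The log2 fold changes and q-values credited to the authors are deposited values from DEGseq, per the file headers, as are transcript lengths. A set of 27 columns comparing pairs of libraries was not used, nor were 4010 rows without FPKM.

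A gene was tested if 3 or more libraries reached 1 FPKM (13765 genes), and tested genes were compared on log2(FPKM + 1) with limma 3.58.1 (R 4.3.3; mean-variance trend, no covariate, two-sided, Benjamini-Hochberg adjusted p under 0.05), which was tested on simulated data. Isoform ratios were tested with exact permutations (scipy 1.17.1). Depth was found as the library size at which most low values of genes with 1 transcript were whole, with 1 length offset of 120 bases for all libraries. At these sizes 75.7% to 79.9% lay within 0.15 fragments, where 30.0% do by chance at a fixed size. The size and the offset were chosen for the highest share, so the share by chance after that search is above 30.0%. It was not estimated. Words of 50 bases came from GENCODE M21 transcripts (GRCm38).

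Members and lists were chosen with earlier results of these data known. Named genes were all pump subunits, up to 4 genes of every other list with the smallest p, and the 8 genes most alike. Others were chosen after their values were seen (Kit, Rhbg, Fxyd4, Scnn1g, Elf5, Kcnj1, Ocstamp and the overlapping genes). Alternatives were other pseudocounts, filters and scalings, each library left out and a block for the replicate number. Correlations of the deviations of same-numbered libraries were -0.03, 0.06 and -0.05, and those of other pairs of libraries ran from -0.25 to 0.25. No pairing by number was seen, but with 3 libraries per group these values cannot exclude one.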

Additional observations from a re-analysis of the deposited data

How the results depend on the processing

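All 5 intercalated-enriched genes were called lower in the 6 fits with another pseudocount, filter, scaling or the block, and 4 to 5 of them in the fits without a library. The count of ubiquitous genes called was 0 in all 12. Over those fits the log2 fold changes of Atp6v1c2, Atp6v1g3 and Atp6v0d2 stayed between -3.03 and -2.35. That of Atp6v0a4 ran from -0.68 to -0.51 without a library, and was -0.51 without WT replicate 2, where it missed the threshold. With a pseudocount of 1 FPKM the ratio differences of Atp6v1g3 and Atp6v0d2 to their paralogues were both -2.42, smaller in size by construction. Without a library, the ratio difference of the a4 and a1 pair ran from -0.59 to -0.31. The other pump subunits had 2 genes called, 3 with a filter of 5 FPKM or upper-quartile scaling, 0 with no filter on low values, 1 with the replicate block and 0 to 2 without a library; the cause was not tested. Without a library, 603 to 955 genes were called in all, against 1210, with fewer samples; counts over 1.5 times lower were 603 without WT replicate 2, 753 without WT replicate 3, 666 without NICD2 replicate 1 and 773 without NICD2 replicate 2. Scaling moved the median of all genes by at most 0.01 on the log2 scale. No pairing of the libraries by replicate number was seen. Under the block 1055 genes were called, and Atp6v1e1 was not (limma adjusted p = 0.0650). In that fit 4 of the 10 macrophage and osteoclast markers tested were higher, as were 616 of all 13765 genes. C1qb was among the 4 (limma adjusted p = 0.0366). It was not called in the main fit (limma adjusted p = 0.245) or in any fit without a library (limma adjusted p up to 0.577). Exact tests of 3 against 3 libraries cannot go below 0.1.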
